A study of Cricetulus griseus with 19 samples.

Results

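The genes Cbx1, Cbx3 and Cbx5, which encode the heterochromatin protein 1 (HP1) family, and Hdac5, which encodes a histone deacetylase, were followed across long-term cultures of Paradaux cells. Paradaux is a derivative of CHO-K1, an ovary-derived Chinese hamster cell line, engineered with a circuit by which the cells limit their own number. The 4 genes were chosen by name, with earlier results of these data known, as heterochromatin genes that may bear on transgene silencing. By accession, each matched 1 of the 46718 transcript targets that the authors quantified. Only 527 targets could be matched to a gene, so other transcripts of these 4 genes may be present without a name. RNA was measured in 7 cultures under paradoxical feedback, in which a signal made by the cells acts on both growth and death, 7 cultures under negative feedback, in which the signal limits the population, 4 cultures with uncontrolled growth, and 1 library of the parental line. All groups share the CHO-K1 label, and the labels give neither the length of the long-term culture nor whether the numbered cultures were kept apart throughout, so the p-values reflect the scatter among these libraries, some of it possibly technical.

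HP1 proteins bind methylated lysine on histone H3 through a chromodomain and recruit other repressive factors through a chromoshadow domain. Cbx5 encodes HP1 alpha and Cbx1 encodes HP1 beta, both concentrated at compact heterochromatin, while Cbx3 encodes HP1 gamma, which is also found in the bodies of active genes. Hdac5 is a class IIa deacetylase that shuttles between nucleus and cytoplasm, represses MEF2 target genes and has been found in complexes with HP1. In CHO cells, which are widely used to produce proteins from inserted genes, heterochromatin at an insert is a known route to loss of expression.

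Each library held between 9.91 and 13.2 M estimated counts, the reads that the quantifier assigned to a target. The share of counts on targets under 800 nt differed between libraries, at 8.50 to 12.4% under paradoxical feedback, 6.12 to 7.22% in negative feedback cultures 3 to 7, 13.3 to 14.1% in negative feedback cultures 1 and 2, 12.2 to 13.4% in uncontrolled cultures and 11.8% in the parental library. Negative feedback thus held 2 sets of libraries, and values are given for each set where they differ. CPM below is the count scaled to a common library size after normalization by the trimmed mean of M values (TMM), and it compares 1 gene between libraries. TPM, which divides by length, is used to compare genes with each other.

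The targets differed in how cleanly reads could be assigned. Cbx1 (NM_001246787.1, 2126 nt) and Cbx3 (NM_001246702.1, 1834 nt) had whole counts in all 19 libraries, which means that no read was divided between them and another target. Cbx5 (NM_001244507.1, 845 nt) had fractional counts in all 19 libraries and Hdac5 (NM_001246781.1, 3336 nt) in 8, so some of their reads were divided among similar transcripts and their levels are less certain. Cbx1 was covered by 1985 to 3106 estimated counts per library and Cbx3 by 1961 to 5250. Cbx5 was covered by 499 to 1452.

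Cbx3, the gene of HP1 gamma, was the only HP1 target called different between any groups, and its level was raised under paradoxical feedback relative to uncontrolled growth. Its lowest, median and highest levels were 206, 327 and 476 CPM under paradoxical feedback. The uncontrolled cultures were at 206, 186, 201 and 236 CPM. Of the 7 paradoxical feedback cultures, 6 lay above every uncontrolled culture, and culture 4 lay among them. The means were 337 ± 81.6 CPM under paradoxical feedback (SD, n = 7) and 207 ± 21.1 CPM in uncontrolled cultures (SD, n = 4), a 1.63-fold difference. In bulk RNA, a higher level in every cell and a larger share of cells with the transcript cannot be told apart. On the log2 scale this was 0.70 ± 0.18 (standard error of the fit), with an adjusted p of 0.0284 by edgeR's quasi-likelihood test. The call was lost when any 1 of uncontrolled cultures 1 to 4 was left out (adjusted p = 0.0851, 0.0969, 0.0737 and 0.0536 by edgeR) or when paradoxical feedback culture 5 was left out (adjusted p = 0.0506), with log2 fold changes of 0.65 to 0.77 in these fits. It was also lost with a replicate block (0.62, adjusted p = 0.186 by edgeR), with the share of counts on short targets as a covariate (0.57, adjusted p = 0.0793 by edgeR) and on log2(TPM + 1) (0.69, adjusted p = 0.0598 by limma).

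**Figure D1:**
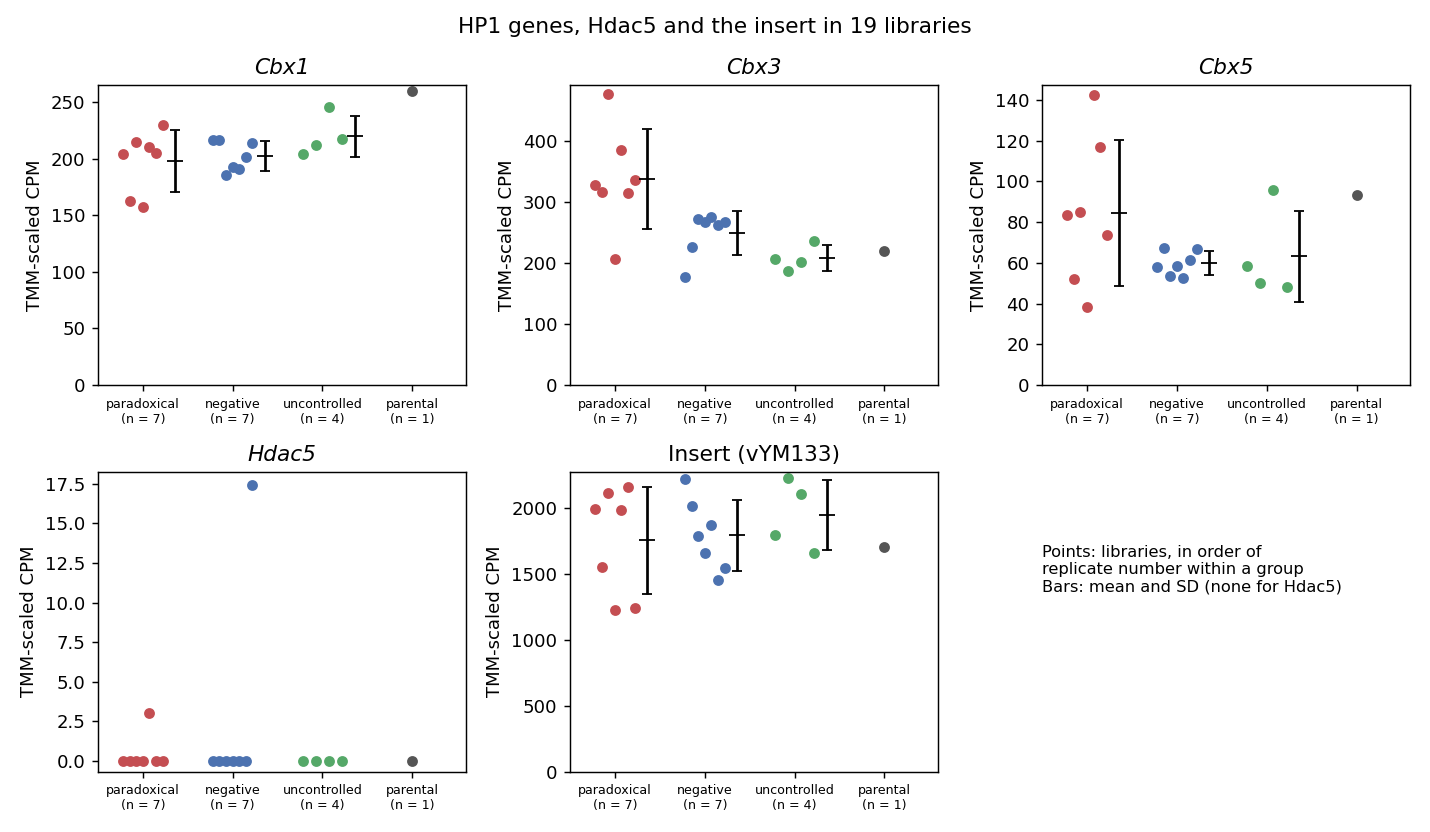
Level of each target in TMM-scaled CPM on the vertical axis, by culture condition on the horizontal axis, with 1 point per library and bars for mean and SD. Cbx3 lies at 314.6 to 476 CPM in 6 of the 7 paradoxical feedback cultures and at 186 to 236 CPM in uncontrolled cultures, and Hdac5 is above 1 CPM in 2 libraries.

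Under negative feedback, Cbx3 had levels of 177, 266 and 275 CPM (lowest, median and highest), which gave a mean of 249 ± 35.9 CPM (SD, n = 7). Cultures 3 to 7 lay close together at 262 to 275 CPM, above all 4 uncontrolled cultures, whereas cultures 1 and 2 stood at 177 and 226 CPM. The log2 fold change against uncontrolled cultures was 0.27 ± 0.17 (95% interval -0.10 to 0.63) and did not pass the test (adjusted p = 0.294 by edgeR). With cultures 3 to 7 left out it was -0.04 ± 0.25. On log2(TPM + 1) it was 0.51 (adjusted p = 0.0954 by limma), where the median of all targets was 0.13. The parental library stood at 219 CPM, inside the range of the uncontrolled cultures. Between both feedback conditions, the log2 fold change of Cbx3 was 0.43 ± 0.15 for paradoxical over negative feedback, which did not pass either (adjusted p = 0.145 by edgeR). This value was 0.18 on log2(TPM + 1) and 0.75 with negative feedback cultures 3 to 7 left out. In CPM, the 6 highest cultures of the series were all under paradoxical feedback. This was not so in TPM, where negative feedback cultures 3 to 7, at 229 to 248, lay within the paradoxical feedback range of 162 to 323. The coefficient of variation in CPM was 24.2% under paradoxical feedback, 14.4% under negative feedback and 10.2% in uncontrolled cultures, where counting error alone would give 1.60, 1.84 and 2.02%. In TPM the order of the feedback conditions turned, at 22.5% under paradoxical and 26.9% under negative feedback, with 14.9% in uncontrolled cultures.

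Cbx1, the gene of HP1 beta, stayed within a narrow range, and no comparison called it. Its lowest, median and highest levels were 157, 205 and 230 CPM under paradoxical feedback and 185, 201 and 217 CPM under negative feedback. Negative feedback cultures 1 and 2 were both above cultures 3 to 7, at 216 and 217 CPM against 185 to 214 CPM. In TPM this order turned, at 112 and 122 in cultures 1 and 2 and 142 to 158 in cultures 3 to 7. The uncontrolled cultures were at 204, 212, 246 and 217 CPM. All 3 groups overlapped, with mean levels of 198 ± 27.2 CPM in the 7 paradoxical feedback cultures, 202 ± 13.2 CPM in the 7 negative feedback cultures and 220 ± 18.03 CPM in the 4 uncontrolled ones (± SD). The parental library, at 260 CPM, was above all 18 long-term libraries, a position that 2.17% of the 28555 tested targets shared. It was not so in TPM, where the parental library had 153 and 3 long-term libraries had more.

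Over all 19 libraries, Cbx5, the gene of HP1 alpha, varied most among the HP1 targets on the log2 CPM scale. Its lowest, median and highest levels were 38.5, 83.5 and 142 CPM under paradoxical feedback, and 52.6, 58.2 and 67.3 CPM under negative feedback. The uncontrolled cultures were at 58.5, 50.3, 95.9 and 48.1 CPM, and the parental library at 93.1 CPM. Paradoxical feedback cultures 5 and 6, at 142 and 117 CPM, were the highest of all libraries, while culture 4 of the same condition was the lowest. The coefficient of variation in CPM was 42.2% under paradoxical feedback, 9.85% under negative feedback and 35.2% in uncontrolled cultures, where culture 3 stood highest. Within negative feedback Cbx3 varied more than Cbx5, at 14.4%. Counting error alone would give 3.23 to 3.79% for Cbx5. In TPM the Cbx5 values were 30.9% under paradoxical feedback, 15.6% under negative feedback and 32.0% in uncontrolled cultures. The mean (± SD) was 84.6 ± 35.7 CPM over the 7 paradoxical feedback cultures, 59.7 ± 5.88 CPM over the 7 negative feedback cultures and 63.2 ± 22.3 CPM over the 4 uncontrolled cultures, and no difference passed.

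Paradoxical feedback culture 4 had the lowest CPM of its condition for Cbx1, Cbx3 and Cbx5, at 157, 206 and 38.5, and for the inserted construct as well. Without TMM scaling it stayed lowest for Cbx3 and Cbx5 but not for Cbx1 or the insert, where cultures 2 and 7 were lower.

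Set against the whole table, 1 of the 3 HP1 targets was called between paradoxical feedback and uncontrolled cultures, where edgeR called 6.43% of the 28555 tested targets, and 4.93% as higher. At an unadjusted p under 0.05 the background was 25.8%. Among the 283 tested targets with a protein-coding gene symbol the share was 20.8%, and their median log2 fold change was 0.55, against 0.02 for all targets. The Cbx3 value of 0.70 exceeded 57.2% of those named targets, so its rise was near that of a typical named gene. Cbx1, at -0.15 ± 0.11 (95% interval -0.38 to 0.07), was below 0 where most named targets were above. Cbx5, at 0.42 ± 0.28, had an interval of -0.18 to 1.02, and it was 0.23 without paradoxical feedback culture 5, 0.69 without uncontrolled culture 3 and 0.20 with a replicate block. Their adjusted p-values by edgeR were 0.387 and 0.370.

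No HP1 target was called between negative feedback and uncontrolled cultures, where the background was 9.76% of targets and 28.3% of named targets. At an unadjusted p under 0.05 the background was 31.2%, and no HP1 target reached it. Cbx1 was at -0.12 ± 0.11 (95% interval -0.34 to 0.11) and Cbx5 at -0.08 ± 0.28 (-0.67 to 0.50), against a median of 0.43 for named targets. On the TPM scale these signs turned, with log2 fold changes of 0.14 and 0.22. None was called between paradoxical and negative feedback either, where the background was 0.27% of targets and 0.353% of named targets. Here Cbx5 was at 0.50 ± 0.24 (95% interval 0.00 to 1.01, adjusted p = 0.285 by edgeR) and Cbx1 at -0.03 ± 0.09 (-0.23 to 0.16). Of the HP1 targets, Cbx3 alone had an unadjusted edgeR p under 0.05 there, as did 17.6% of all targets. The 3 comparisons share cultures, so their values are not independent of each other.

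**Figure D2:**
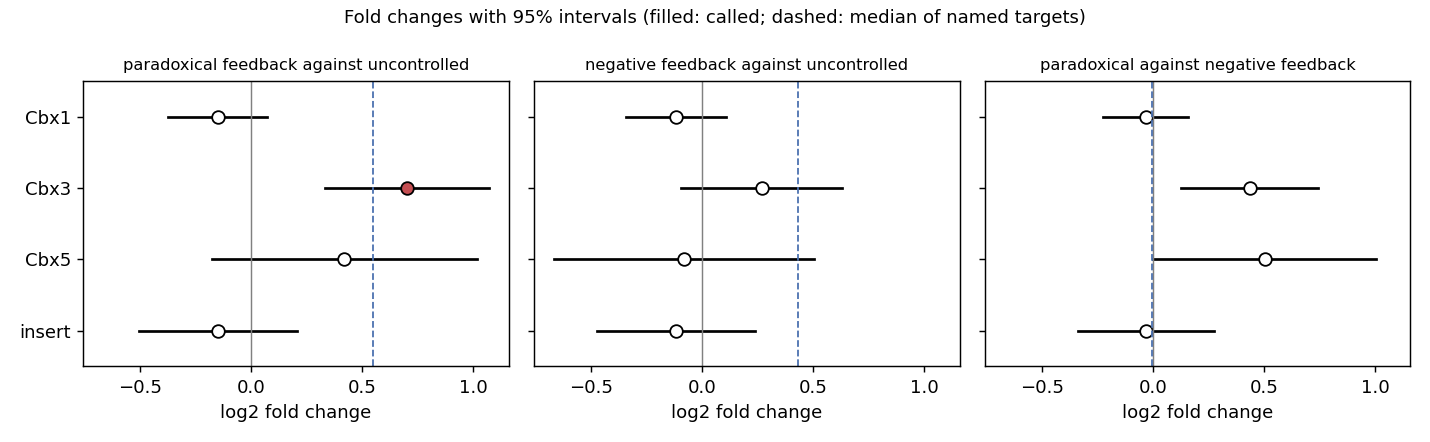
Log2 fold change on the horizontal axis for Cbx1, Cbx3, Cbx5 and the insert in each comparison, with lines for 95% intervals, a filled point for a called target and a dashed line for the median of named targets. The filled point is Cbx3 at 0.70 for paradoxical feedback against uncontrolled growth.

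The balance among the HP1 targets was compared within each library in TPM, a ratio on which scaling between libraries has no bearing. The ratio of Cbx3 to Cbx1 had a lowest, median and highest value of 1.56, 1.91 and 2.64 under paradoxical feedback. Under negative feedback it was 0.98 and 1.24 in cultures 1 and 2 and 1.49 to 1.74 in cultures 3 to 7. The uncontrolled cultures had ratios of 1.20, 1.04, 0.97 and 1.30, and the parental library 1.00, where Cbx1 was at 153 TPM, Cbx3 at 154 and Cbx5 at 183. Every paradoxical feedback culture was therefore above every uncontrolled one, culture 4 included. The same held for the ratio to Cbx1 of 10.9% of all tested targets and of 32.5% of named ones, so a rise relative to Cbx1 was common among named genes.

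Cbx3 had the highest TPM of the HP1 targets in 5 of 7 paradoxical feedback, 6 of 7 negative feedback and 3 of 4 uncontrolled cultures. Cbx5 was highest in paradoxical feedback cultures 5 and 6, in uncontrolled culture 3 and in the parental library, and Cbx1 in negative feedback culture 1. As a share of the summed HP1 TPM, Cbx1 made up 23.1 ± 3.82% over the 7 paradoxical feedback cultures, 29.1 ± 2.80% over the 7 negative feedback cultures and 32.6 ± 2.02% over the 4 uncontrolled cultures (± SD). Within negative feedback this share was 34.8 and 30.5% in cultures 1 and 2 and 27.0 to 28.3% in cultures 3 to 7. The summed level was 351 to 608 TPM under paradoxical feedback, 525 to 565 TPM in negative feedback cultures 3 to 7, 322 and 399 TPM in negative feedback cultures 1 and 2, and 331 to 445 TPM in uncontrolled cultures. No test was made on these shares and sums. They describe single targets, since counts were not summed to genes, and the Cbx5 target had shared reads in every library.

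**Figure D3:**
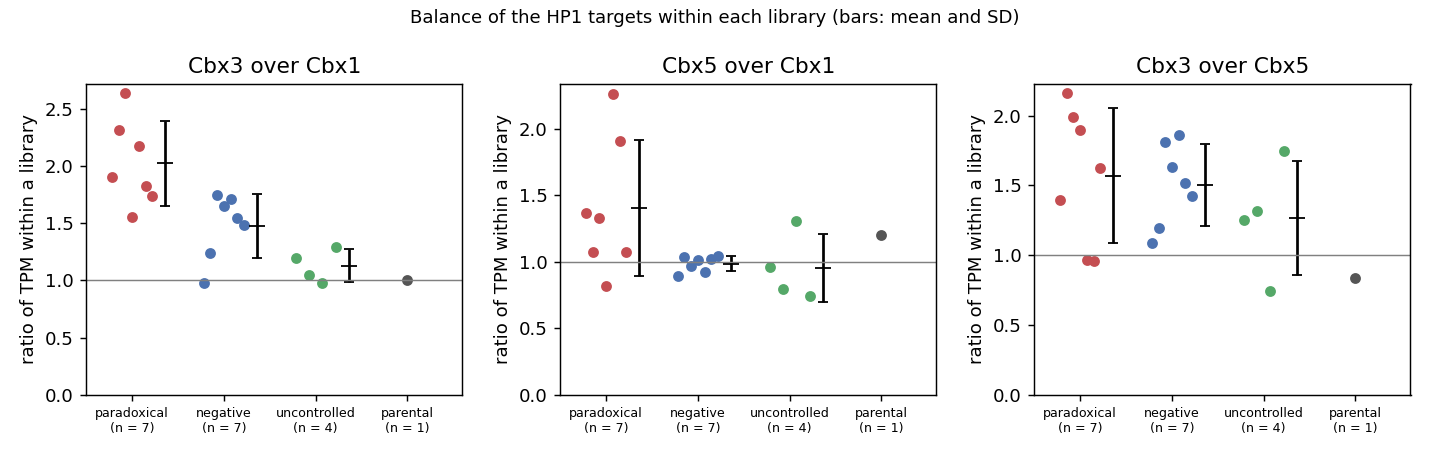
Ratios of TPM between HP1 targets within each library on the vertical axis, by culture condition, with bars for mean and SD and a line at equal levels. The Cbx3 to Cbx1 ratio is 1.56 to 2.64 under paradoxical feedback and 0.97 to 1.30 in uncontrolled cultures.

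The Hdac5 target was at or near 0 almost everywhere. Its estimated count was 222 in negative feedback culture 7, or 17.4 CPM, and 31.1 in paradoxical feedback culture 5, or 3.03 CPM. In the other 17 libraries it rounded to 0, under a floor of 3 counts that corresponds to 0.23 to 0.29 CPM, and in 8 of them it was exactly 0. Negative feedback culture 7 had 7.53 TPM of Hdac5, against 154 to 229 TPM for the HP1 targets in that library. The filter on low counts kept this target only because of those 2 libraries, and every other library lay under the floor, so its group fold changes and their tests are not read as a result. Because the reads are shared with similar transcripts and counts were not summed to genes, a target at 0 does not show that the gene was silent.

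The inserted construct, a target of 8694 nt named vYM133_linearized_insertion in the files, was far more abundant in CPM than any member and did not follow Cbx3 between conditions. Its lowest, median and highest levels were 1227, 1981 and 2156 CPM under paradoxical feedback, and 1449, 1782 and 2218 CPM under negative feedback. Negative feedback cultures 1 and 2, at 2218 and 2010 CPM, were above cultures 3 to 7, at 1449 to 1866 CPM, which is the opposite order to that of Cbx3. In TPM these sets overlapped, at 251 and 245 in cultures 1 and 2 and 242 to 307 in cultures 3 to 7. The uncontrolled cultures were at 1790, 2222, 2100 and 1657 CPM. The parental library, at 1703 CPM, lay inside that range. In TPM it was at 218, against 219 to 266 in uncontrolled cultures. Per length, the insert was at 221 ± 32.8 TPM under paradoxical feedback (SD, n = 7), close to Cbx3 at 235 ± 52.8 TPM. Elsewhere the insert was above Cbx3, at 243 against 143 TPM (means) in uncontrolled cultures and 218 against 154 TPM in the parental library. Under negative feedback the means were 248 against 130 TPM in cultures 1 and 2 and 274 against 243 TPM in cultures 3 to 7. The TPM of the insert divides by the length of the whole target, of which the transcribed part is not known here. These levels therefore compare targets, not transcripts. The log2 fold change of the insert for paradoxical feedback over uncontrolled growth had a 95% interval of -0.51 to 0.21, and that of Cbx3 in the same fit had one of 0.33 to 1.07. The insert is a single target, so parts of the circuit could not be told apart. Like Cbx5, it had fractional counts, in 18 of the 19 libraries, so some of its reads were divided with other targets and its level is less certain.

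Within the 7 paradoxical feedback cultures, each HP1 target was set against the insert on the log2 CPM scale, which made 3 relations. Pearson's r with the insert was 0.76 for Cbx5 (exact two-sided permutation p = 0.0663, adjusted 0.199), and Spearman's rho was 0.75 (exact permutation p = 0.0663, adjusted 0.199). For Cbx3, r was 0.65 (exact permutation p = 0.154, adjusted 0.230) and rho 0.29 (exact permutation p = 0.556, adjusted 0.556). For Cbx1, r was 0.40 (exact permutation p = 0.267, adjusted 0.267) and rho 0.29 (exact permutation p = 0.556, adjusted 0.556). None passed. Leaving out the 2 cultures farthest from each target's median gave r of 0.64 for Cbx5, 0.10 for Cbx3 and -0.88 for Cbx1 over the 5 cultures left, a smaller range of levels. Single cultures moved r as well. Without culture 4 it was 0.60, 0.36 and 0.01 for Cbx5, Cbx3 and Cbx1, and without culture 7 it was 0.89, 0.82 and 0.95, so the relations for Cbx3 and Cbx1 depended on single cultures. Both values of a culture share its library and its scaling factor. With library size alone, r was 0.64, 0.43 and -0.07 for Cbx5, Cbx3 and Cbx1, and in TPM it was 0.45, 0.43 and -0.12. Cultures 4 and 7 had like insert levels, 1227 and 1240 CPM, but differed in Cbx3, at 206 and 335 CPM. Negative feedback held 2 sets of libraries and the uncontrolled group 4 libraries, so no relation was computed there.

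**Figure D4:**
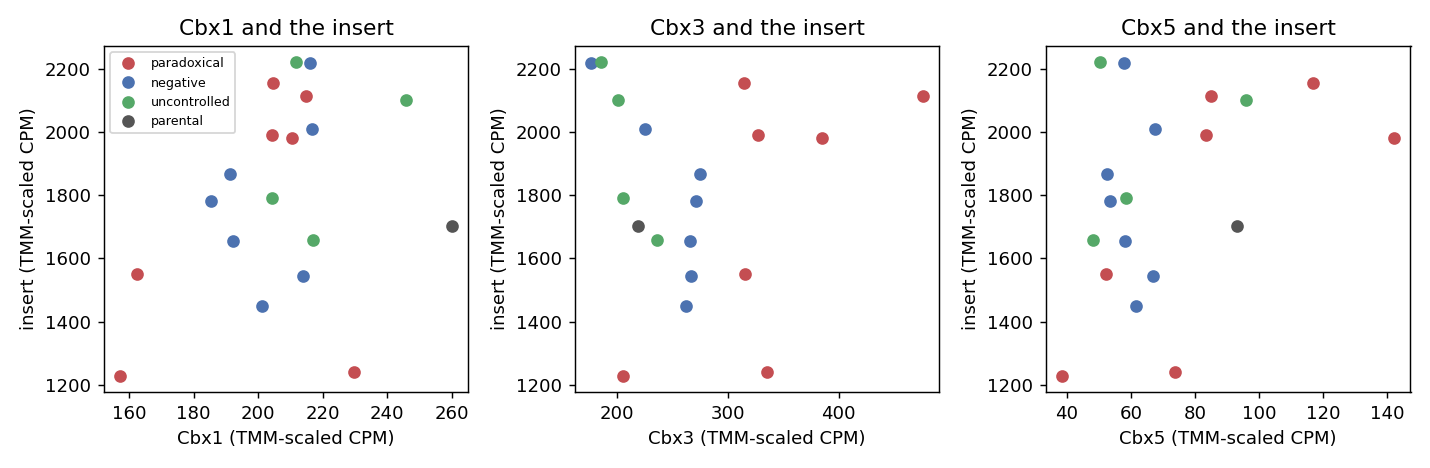
Level of the insert in TMM-scaled CPM on the vertical axis against Cbx1, Cbx3 or Cbx5 in the same unit on the horizontal axis, with 1 point per library, coloured by culture condition. Axes do not start at 0, and the paradoxical feedback cultures with the lowest insert, at 1227 and 1240 CPM, lie at 206 and 335 CPM of Cbx3.

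Within negative feedback, Cbx3 was higher in CPM in the set of libraries with the smaller share of counts on short targets. Cultures 3 to 7, with 6.12 to 7.22% of counts on targets under 800 nt, had 262 to 275 CPM of Cbx3, and cultures 1 and 2, with 14.1 and 13.3%, had 177 and 226 CPM. For Cbx1 and the insert the order was the other way in CPM, with cultures 1 and 2 above cultures 3 to 7. For Cbx1 the gap was narrow, at 216 CPM in culture 1 against 214 CPM in culture 7. In TPM the Cbx1 order turned, at 112 and 122 in cultures 1 and 2 and 142 to 158 in cultures 3 to 7. The insert sets overlapped in TPM. Uncontrolled cultures, with 12.2 to 13.4%, had 186 to 236 CPM of Cbx3. Paradoxical feedback did not follow the same order, since culture 5 had the largest share of its condition, 12.4%, and the second highest Cbx3 level, 385 CPM. With this share as a covariate, Cbx3 was at 0.57 ± 0.18 for paradoxical feedback over uncontrolled growth (adjusted p = 0.0793 by edgeR), and at 0.04 ± 0.20 for negative feedback over uncontrolled growth. Cbx5, whose target is itself near the length limit, was at 52.6 to 66.9 CPM in cultures 3 to 7 and 57.8 and 67.3 CPM in cultures 1 and 2. In TPM these Cbx5 sets did not overlap, at 133 to 162 in cultures 3 to 7 and 100 and 126 in cultures 1 and 2.

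**Figure D5:**
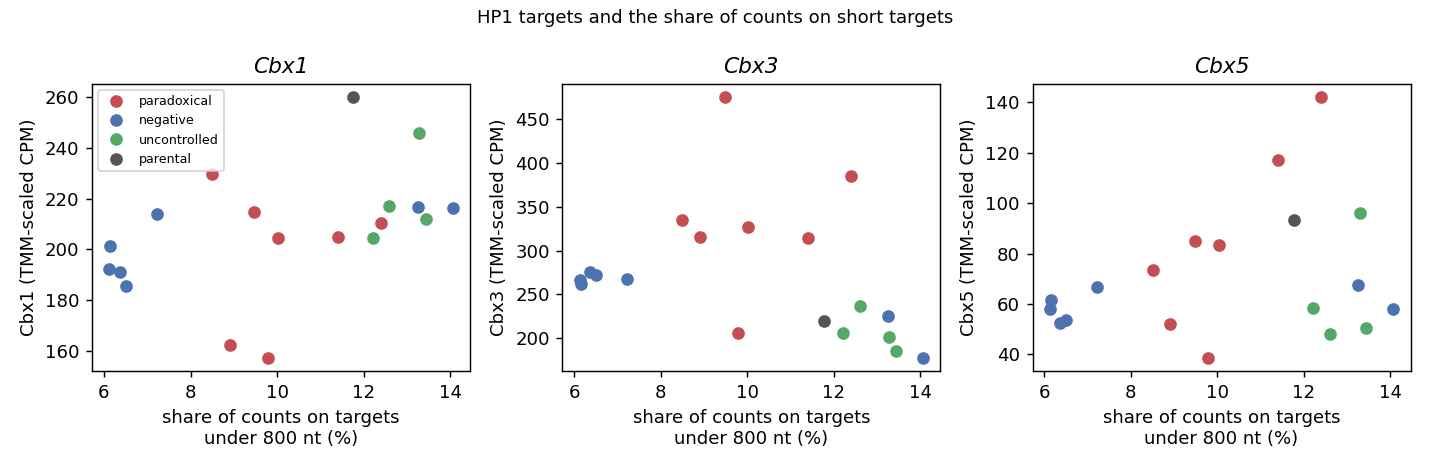
CPM of Cbx1, Cbx3 and Cbx5 on the vertical axis against the percentage of counts on targets under 800 nt on the horizontal axis, with 1 point per library, coloured by culture condition; axes do not start at 0. Negative feedback cultures 3 to 7 form a set at 6.12 to 7.22% and 262 to 275 CPM of Cbx3.

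Named targets with the pattern most like each member over all 19 libraries were found by the root-mean-square difference of log2 CPM, after each target was centred at its own mean. For Cbx3 these were Tcp1, a subunit of the cytosolic chaperonin with shared reads, at 0.18, Stip1, which links Hsp70 to Hsp90, at 0.20, and Eef2, the elongation factor that moves the ribosome, at 0.21, against a median of 0.66 over 282 named targets. Their log2 fold changes for paradoxical feedback over uncontrolled growth were 0.64 ± 0.18, 0.95 ± 0.19 and 0.62 ± 0.11. The Cbx3 target itself varied with an SD of 0.37 on this scale. For Cbx1 they were Eef1e1, a factor of the tRNA synthetase complex, at 0.17, Dpm1, which makes dolichol-phosphate mannose, at 0.18, and Hspa9, the mitochondrial Hsp70, at 0.22, against an SD of 0.17 for Cbx1 itself. For Cbx5 they were Cdc7, a kinase that starts replication, with shared reads, at 0.24, Ercc1, a nucleotide excision repair protein, at 0.27, and Tst, a mitochondrial sulfurtransferase, at 0.29. Hdac5 had no close match: Mad1l1 (with shared reads), Ext1 and Gnai2 were nearest at 1.58 to 1.64, near the median of 1.77. These distances are descriptions without a test.

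Few other chromatin genes could be read in these files. Of 96 genes listed as heterochromatin and Polycomb factors, DNA methylation factors, other deacetylases, partners of class IIa deacetylases, or histone demethylases, acetyltransferases and architectural proteins, 89 were in the gene table and 1, Hmga1, matched a target. That target was listed at 0 in all 19 libraries and was not tested. The methyltransferases that write the mark read by HP1 and the partners of Hdac5 were therefore not analysed here. In the table's assembly, CriGri-PICRH-1.0, Cbx3 is followed by Hnrnpa2b1 and then Nfe2l3, and Cbx5 by Hnrnpa1 and then Nfe2, while Cbx1 is followed by Nfe2l1. In human cells the promoter region shared by the counterparts of Cbx3 and Hnrnpa2b1 is known as a ubiquitous chromatin opening element and is used to keep transgenes active. None of these neighbours matched a target. A gene with only a provisional name overlaps Cbx3 in that assembly, and the Cbx3 counts were whole in every library. The cell line label was not checked against a marker set.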

How the data were processed

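Polyadenylated RNA of 19 libraries was quantified by the authors with kallisto after Trim Galore, per the submitters' processing notes, which give no versions. The index, genome build and annotation are not stated by the sources at hand. The deposited estimated count is the number of reads assigned to each of 46718 targets, and the deposited TPM scales it by effective length. Targets were named by accession from a RefSeq gene table of assembly CriGri-PICRH-1.0, which matched 527 targets, 333 of them protein coding. Estimated counts were rounded, filtered with filterByExpr (28555 targets left), scaled by TMM and fitted in edgeR 4.0.16 (R 4.3.3), with 1 coefficient per group and all 19 libraries. The quasi-likelihood test was adjusted over all tested targets (Benjamini-Hochberg), with calls at an adjusted p under 0.05. Log2 CPM used a prior count of 2 and whole counts a tolerance of 1e-06. Floors of 3 counts cover counting error only. Alternatives used DESeq2 1.42.0 and limma 3.58.1, with a pseudocount of 1 for TPM. Hdac5 was left out of the relations with the insert because 1 paradoxical feedback library was above the floor. Named genes were the members, the insert, the 3 most similar named targets per member, and up to 3 tested genes of each list. The members and lists were chosen with earlier results of these data known. No sequences are shown, since the reference used here held none for these genes.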

Additional observations from a re-analysis of the deposited data

Results flagged for a closer look

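In 2 of 14 groups of values examined (the members and the insert in each of the 3 long-term conditions, except Hdac5 in uncontrolled cultures, which was at 0 throughout), the highest library lay far from the rest of its group. Chance alone would single out about 1 in 20 groups of continuous values. That rate has no bearing on Hdac5, where any library above 0 stands apart when the others are at 0. Hdac5 stood at 17.4 CPM in negative feedback culture 7, with the other 6 cultures at 0 CPM after rounding. It stood at 3.03 CPM in paradoxical feedback culture 5, again with the other 6 at 0. Both libraries had ordinary totals, 12.8 and 11.5 M estimated counts, and the reads of this target are shared with similar transcripts, whose part in the result was not tested.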

How the results depend on the processing

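For paradoxical feedback against uncontrolled growth, Cbx3 was higher in all 28 alternatives (log2 fold change 0.57 to 0.79) and was called in 20. The 20 include every fit that left out negative feedback cultures, which kept the cultures compared unchanged. The call was lost whichever uncontrolled culture was left out (adjusted p = 0.0536 to 0.0969 by edgeR). It was also lost without paradoxical feedback culture 5 (adjusted p = 0.0506 by edgeR). Limma on log2(TPM + 1) missed the threshold, at 0.69 (adjusted p = 0.0598), as did the fit with the share of short targets as a covariate, at 0.57. When 1 library was left out in turn, the Cbx3 value ran from 0.60 to 0.79. The labels do not state whether the replicate numbers pair the samples. Deviations of same-numbered cultures correlated at -0.16 to 0.11 over 15 pairs. Differently numbered cultures were not compared, so these values do not decide whether the samples are paired. With a replicate block, Cbx3 was at 0.62 (adjusted p = 0.186), and the block left 3, 4 and 0 targets called in the 3 comparisons, taken as paradoxical and negative feedback against uncontrolled growth and paradoxical against negative feedback. No other HP1 target changed its side of the threshold in any alternative run.

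Several signs turned, none of them of a called value. On log2(TPM + 1), negative feedback against uncontrolled growth gave 0.14 for Cbx1, 0.22 for Cbx5 and 0.13 for the insert, where the median of all targets was 0.13. With the short-target covariate the same comparison gave 0.21 for Cbx5 and 0.16 for the insert, and paradoxical feedback gave 0.025 for the insert. Without negative feedback cultures 3 to 7, an alternative chosen after seeing the data, Cbx3 was at -0.038 (0.27 with them) and the insert at 0.12 for negative feedback. With 1 library left out, the values between both feedback conditions ran from -0.074 to 0.014 for Cbx1 and -0.088 to 0.039 for the insert, and Cbx5 under negative feedback from -0.19 to 0.19. The fitted Hdac5 coefficients are no measure of a fold, since 1 library per feedback condition carries all its counts. They were -0.045 for paradoxical feedback with a replicate block, 5.35 between both feedback conditions without cultures 3 to 7, and -7.88 to 5.36 there with 1 library left out. The relation of Cbx1 with the insert (r = 0.40) was -0.072 by library size alone and -0.12 in TPM, and 0.014 to 0.95 with 1 culture left out. In the same order the relation of Cbx3 (0.65) was 0.43, 0.43 and 0.36 to 0.82, and that of Cbx5 (0.76) was 0.64, 0.45 and 0.60 to 0.89.

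Counts of called targets moved most. For paradoxical feedback against uncontrolled growth (1835, of which 1408 higher and 427 lower), DESeq2 called 4838, the fit of only the groups compared 4956, the covariate 1145, and the fit without negative feedback cultures 3 to 7 4926. Library size alone called 905 higher and 521 lower there, and the larger direction turned with limma-voom (1082 higher, 1507 lower) and limma on TPM (984 higher, 1444 lower). For negative feedback (2787, of which 2470 higher and 317 lower), DESeq2 called 6451, limma-voom 5039 (1637 higher, 3402 lower), limma on TPM 6811 (4264 higher, 2547 lower), only the groups compared 10, the covariate 6, and 13 were called without cultures 3 to 7. Between both feedback conditions (77, of which 47 higher and 30 lower), the values were 11 with DESeq2 size factors, of which 1 higher and 10 lower, 42 by library size alone, 2 without a filter, 1798 by DESeq2 (481 higher, 1317 lower), 297 by limma-voom, 31 on TPM, 0 with only the groups compared, 697 with the covariate and 2454 without cultures 3 to 7. With 1 library left out these counts ran from 127 to 3204, 7 to 6938 and 0 to 989. The causes were not tested.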
